A study of Homo sapiens with 8 samples.

Results

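The genes described here are 10 targets of YAP and TAZ: CTGF, CYR61, F3, AXL, ANKRD1, MYOF, LATS2, AMOTL1, AMOTL2 and TEAD1. They were found by symbol among 40693 gene symbols in 8 RNA-seq libraries of human colorectal adenocarcinoma cells. CTGF and CYR61 are older symbols of CCN2 and CCN1. The genes were chosen from general knowledge of the pathway with earlier results of these libraries known, so no p-value is given for them as a set. SW480 is a colorectal adenocarcinoma line labelled Dukes' type B, and SW620 is one labelled Dukes' type C. Untreated SW480 and untreated SW620 gave 1 library each. The other 6 libraries came from SW620 cells carrying a lentiviral U6 hairpin vector, 3 with a hairpin against FOXA2 (shFOXA2) and 3 with a control hairpin (shNC), and both hairpin populations were stable and selected with puromycin. The labels name 2 target sites for FOXA2, and the shFOXA2 titles carry the number 1. Separate cultures are not stated for the replicates, so p-values measure the spread between these libraries, which may be technical.

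YAP and TAZ are transcriptional coactivators that bind DNA through the TEAD factors. The Hippo kinases, with LATS1 and LATS2 acting last, phosphorylate YAP and TAZ and keep them out of the nucleus. When YAP and TAZ enter the nucleus they raise genes for secreted matrix proteins and receptors, and also genes such as LATS2 and AMOTL2 that feed back on the pathway. In the intestine the pathway is known for its part in regeneration after injury and in colorectal tumours.

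RefSeq promoter windows (GRCh38.p14, from 250 bases before to 50 after the start) were given for 8 of the 10 genes. They were searched for the TEAD-type motif GGAATG and, for the other strand, CATTCC. The 8 genes had 10 windows, and 5 of the 10 held the motif, 1 each of CTGF, ANKRD1, AMOTL2, LATS2 and AXL. AMOTL2 and AXL each had another window that did not hold it. Among all 35116 windows of this length, 14.03% held it. The 3 windows below are those of the gene with the most matches, of the gene that differed most between the untreated lines, and of a gene that rose in all 3 shFOXA2 libraries, with each match in capitals.
CTGF, chr6:131951323-131951622, minus strand: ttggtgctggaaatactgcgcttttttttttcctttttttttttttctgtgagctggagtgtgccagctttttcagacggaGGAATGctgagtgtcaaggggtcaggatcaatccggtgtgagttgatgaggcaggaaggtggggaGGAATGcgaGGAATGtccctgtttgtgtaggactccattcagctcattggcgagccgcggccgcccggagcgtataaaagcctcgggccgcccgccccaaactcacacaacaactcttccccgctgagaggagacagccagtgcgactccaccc
ANKRD1, chr10:90921038-90921337, minus strand: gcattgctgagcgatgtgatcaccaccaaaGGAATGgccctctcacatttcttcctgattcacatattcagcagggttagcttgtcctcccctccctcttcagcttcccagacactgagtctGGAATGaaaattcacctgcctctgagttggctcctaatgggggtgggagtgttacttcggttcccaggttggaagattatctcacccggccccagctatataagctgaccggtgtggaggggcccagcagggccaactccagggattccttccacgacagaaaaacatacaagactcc
AMOTL2, chr3:134374398-134374697, minus strand: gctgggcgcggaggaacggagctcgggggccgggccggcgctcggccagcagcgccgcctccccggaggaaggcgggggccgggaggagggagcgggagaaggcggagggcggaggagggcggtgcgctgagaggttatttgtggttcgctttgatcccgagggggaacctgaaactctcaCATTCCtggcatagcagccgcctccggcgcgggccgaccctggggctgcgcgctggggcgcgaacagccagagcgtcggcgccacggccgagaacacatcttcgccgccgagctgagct
The CTGF window held 3 matches, starting 169, 104 and 95 bases before the start, and 0.128% of all windows held 3 or more. The ANKRD1 window held 2, and the AMOTL2 window held 1 on the other strand, 69 bases before the start. A match is a string of letters and was not tested for binding.

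Total counts were 72323506 in SW480 and 95935348 in SW620, and between 7478411 and 13076566 in the hairpin libraries. Mitochondrial genes took 11.75% and 11.11% of counts in the untreated lines and between 4.455% and 4.823% in the hairpin libraries. Levels are TMM-scaled CPM, that is counts divided by the scaled library total, which compare 1 gene between libraries. All 10 epithelial markers were detected in every library, with summed levels of 6340 to 9189 CPM, most of it from the keratins KRT8, KRT18 and KRT19. In shFOXA2 against shNC, 2 of the 10 rose and 5 fell, where 19.2% and 19.8% of all 16100 genes tested did. The largest falls were those of the claudin CLDN4 by 0.34 and the adhesion protein CEACAM5 by 0.98 on the log2 scale (edgeR adjusted p 3.01e-07 and 1.44e-04). ELF3 fell by 0.23 and EPCAM and KRT19 by 0.13 each, while VIL1 rose by 0.26 and KRT18 by 0.11. Without shFOXA2 replicate 1, 2 rose (VIL1 and CDH1) and 3 fell. Over all 16400 genes tested in that fit, 2813 rose and 2970 fell. FOXA2, a forkhead factor of endoderm and the target of the hairpin, was at 29.8, 28.7 and 21.8 CPM in shFOXA2 replicates 1, 2 and 3 and at 52.6, 48.9 and 52.0 CPM in shNC replicates 1, 2 and 3. It fell by 0.91 on the log2 scale (SE 0.09, edgeR quasi-likelihood adjusted p 6.88e-10). FOXA2 was at 4.63 CPM in SW480 and 82.4 CPM in untreated SW620.

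Replicate 1 stood apart from replicates 2 and 3 in both hairpin groups. The chi-square per degree of freedom between 2 libraries rises with differences beyond sampling noise. For replicate 1 against replicates 2 and 3 it was 3.69 and 4.25 in shFOXA2 and 4.16 and 4.06 in shNC. Between replicates 2 and 3 it was 1.62 in shFOXA2 and 1.70 in shNC. Library shFOXA2 replicate 1 held 62 genes with at least 30 counts whose level was at least 4 times that of the next highest hairpin library. By the same measure shNC replicate 1 held 14 genes and the remaining hairpin libraries held 0. CTGF was the only one of the 10 genes among the 62. The summed level of 10 hepatocyte markers was 176 CPM in shFOXA2 replicate 1, against 25.3 to 27.8 CPM in the other 5 hairpin libraries, with the apolipoprotein gene APOB at 154.7 CPM. That sum was 75.6 CPM in SW480, with SERPINA1 at 75.4 CPM and APOB at 0, and 20.1 CPM in untreated SW620. The summed level of 10 fibroblast markers was 136.5 CPM in shFOXA2 replicate 1, 37.7 and 42.0 CPM in shFOXA2 replicates 2 and 3, and 26.3 to 28.3 CPM in shNC. In untreated SW480 and SW620 it was 83.5 and 72.2 CPM, above shNC and above shFOXA2 replicates 2 and 3. Of the 4 fibroblast markers tested, 2 rose in shFOXA2 and 0 fell, where 19.2% and 19.8% of all genes tested did. The collagen COL1A1 was at 6.17, 2.92 and 3.92 CPM in shFOXA2 replicates 1 to 3 and at 2.04 to 2.26 CPM in shNC, and rose by 1.06 on the log2 scale (edgeR adjusted p 4.50e-04), and by 0.70 without shFOXA2 replicate 1 (adjusted p 0.0423). LUM, the matrix proteoglycan lumican, was at 11.3 to 14.02 CPM in shFOXA2 and at 8.22 to 9.36 CPM in shNC, and rose by 0.53 (adjusted p 0.00111). FN1, fibronectin, made up most of the fibroblast sum in SW480 (78.8 CPM), untreated SW620 (61.6 CPM) and shFOXA2 replicate 1 (89.0 CPM). It had an adjusted p of 0.171, and of 5.47e-05 without shFOXA2 replicate 1, so that 3 of the 4 rose in that fit. Of all 16400 genes tested in that fit, 2813 rose. The collagens COL1A2 and COL3A1 were at 0 in all 8 libraries. These markers were named after their values were seen. Summed leukocyte markers ranged from 31.6 to 38.9 CPM in shFOXA2 and from 22.6 to 28.6 CPM in shNC, and 7 endothelial markers summed to 3.9 CPM or less. The part of these markers in the results was not tested.

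In the hairpin libraries most of the YAP and TAZ targets were higher with the FOXA2 hairpin. Of the 10 genes, 9 passed the filter on low counts and were tested. CYR61, F3, AXL, MYOF, LATS2 and AMOTL2 rose, TEAD1 fell, and CTGF and ANKRD1 did not pass an adjusted p of 0.05. AMOTL1 was too low to test. In these bulk libraries fewer cells with a transcript and less transcript per cell cannot be told apart. Among all 16100 genes tested, 19.2% rose and 19.8% fell. The 9 tested genes had a median log2 fold change of 0.81, against 0.01 over all genes tested. For 7 of the genes all 3 shFOXA2 libraries lay above all 3 shNC libraries, as for 21.2% of tested genes, and for TEAD1 all 3 lay below, as for 27.5%. An exact permutation test of 3 libraries against 3 cannot go below a two-sided p of 0.1, which was reached by the tested genes other than ANKRD1.

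**Figure D1:**
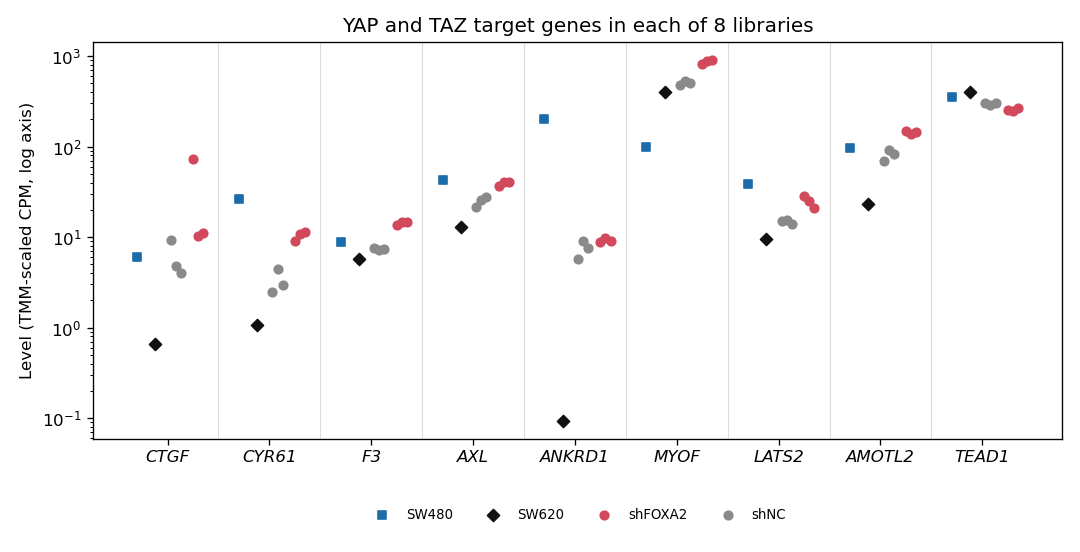
Level of 9 of the 10 genes in each library, in TMM-scaled CPM on a log axis; each point is 1 library, and AMOTL1, at 0 in both untreated lines, is not drawn. CTGF reaches 72.9 CPM in shFOXA2 replicate 1 alone, and ANKRD1 spans from 0.0941 CPM in untreated SW620 to 201 CPM in SW480.

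The secreted matricellular proteins came first. CYR61, which binds integrins at the cell surface (ENSG00000142871.11; chromosome 1, 85580761 to 85583962, plus strand of GRCh38), was at 9.04, 10.9 and 11.4 CPM in shFOXA2 replicates 1 to 3. In shNC replicates 1 to 3 it was at 2.50, 4.46 and 2.94 CPM. The 2 groups did not overlap, and the lowest shFOXA2 library lay well above the highest shNC library. CYR61 rose by 1.68 on the log2 scale, a 3.20-fold difference (SE 0.19, n = 3 per group, edgeR adjusted p 8.36e-10), the largest change of the genes that passed the test.

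CTGF, the connective tissue growth factor (ENSG00000118523.5; chromosome 6, 131948176 to 131951373, minus strand of GRCh38), was at 72.9, 10.4 and 10.98 CPM in shFOXA2 replicates 1 to 3. In shNC replicates 1 to 3 it was at 9.36, 4.84 and 4.00 CPM. All 3 shFOXA2 libraries were above all 3 shNC libraries, but the gap between shFOXA2 replicate 2 and shNC replicate 1 was small and replicate 1 of shFOXA2 was far above the rest. The log2 fold change was 2.46 with an SE of 1.10 and an edgeR adjusted p of 0.168, and without shFOXA2 replicate 1 it was 0.85 with an adjusted p of 0.145. DESeq2, another count test, gave 2.40 with an adjusted p of 0.03995. Exons of CTGF share 195 bases with an antisense gene, and strand use in the counting is unknown here.

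**Figure D2:**
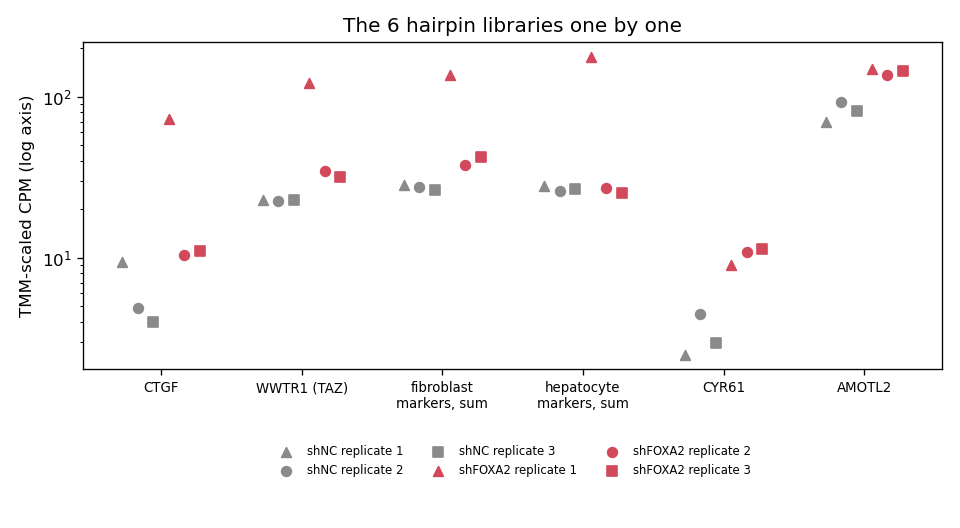
Levels of CTGF, WWTR1 (TAZ), CYR61 and AMOTL2 and the summed levels of fibroblast and hepatocyte markers in the 6 hairpin libraries, in TMM-scaled CPM on a log axis; each point is 1 library. The red triangle, shFOXA2 replicate 1, stands above all others for CTGF (72.9 CPM), WWTR1 (122 CPM) and both marker sums, but not for CYR61 (9.04 CPM).

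The cell surface genes rose with no overlap between the groups. F3 encodes tissue factor, the receptor that starts blood coagulation (ENSG00000117525.9; chromosome 1, 94529225 to 94541800, minus strand). Its levels were 13.6, 14.7 and 14.8 CPM in shFOXA2 replicates 1 to 3 and 7.64, 7.15 and 7.34 CPM in shNC replicates 1 to 3. The groups were well apart, and F3 rose by 0.99 on the log2 scale (SE 0.13, n = 3 per group, edgeR adjusted p 2.38e-08). AXL encodes a receptor tyrosine kinase bound by GAS6 (ENSG00000167601.7; chromosome 19, 41219203 to 41261766, plus strand). It was at 37.1, 40.8 and 40.3 CPM in shFOXA2 and at 21.4, 25.7 and 28.0 CPM in shNC, in the order of the replicate numbers. The shFOXA2 libraries were all above the shNC libraries, and AXL rose by 0.68 on the log2 scale (SE 0.09, edgeR adjusted p 2.12e-08). Exons of AXL share 67 bases with an antisense gene.

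MYOF, a ferlin that works in membrane repair and fusion (ENSG00000138119.12; chromosome 10, 93306429 to 93482317, minus strand), rose by a similar amount. Its levels were 825, 883 and 894 CPM in shFOXA2 and 481, 527 and 504 CPM in shNC. No shFOXA2 library came near the shNC libraries, and MYOF rose by 0.81 on the log2 scale (SE 0.04, n = 3 per group, edgeR adjusted p 3.19e-19). ANKRD1, an ankyrin repeat protein of nucleus and sarcomere (ENSG00000148677.6; chromosome 10, 90912096 to 90921276, minus strand), was at 8.88, 9.82 and 9.02 CPM in shFOXA2 and at 5.77, 9.07 and 7.67 CPM in shNC. Its groups overlapped, since shNC replicate 2 lay within the shFOXA2 range. The log2 fold change of ANKRD1 was 0.32 (SE 0.16, edgeR adjusted p 0.0974), and without shNC replicate 2 it was 0.49 with an adjusted p of 0.0261.

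Among the genes that feed back on the pathway, LATS2 encodes a kinase that phosphorylates YAP and TAZ (ENSG00000150457.7; chromosome 13, 20973032 to 21061547, minus strand). LATS2 was at 28.4, 25.2 and 21.1 CPM in shFOXA2 and at 15.1, 15.6 and 14.1 CPM in shNC. Every shFOXA2 library was above every shNC library, and LATS2 rose by 0.77 on the log2 scale (SE 0.10, edgeR adjusted p 4.82e-08). AMOTL2, an angiomotin family protein that holds YAP at cell junctions (ENSG00000114019.10; chromosome 3, 134355874 to 134375479, minus strand), was at 149, 137 and 144 CPM in shFOXA2 and at 69.3, 92.1 and 81.8 CPM in shNC. It rose by 0.85 on the log2 scale (SE 0.11, n = 3 per group, edgeR adjusted p 0.00206), with no overlap between the groups. Exons of AMOTL2 share 187 bases with a pseudogene on the same strand. AMOTL1, its relative (ENSG00000166025.13; chromosome 11, 94706431 to 94876753, plus strand), had 1, 2 and 3 counts in shFOXA2 and 7, 3 and 6 counts in shNC. These counts were too few for a comparison.

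TEAD1, a DNA-binding partner of YAP and TAZ (ENSG00000187079.10; chromosome 11, 12674591 to 12944483, plus strand), went the other way. It was at 255, 248 and 263 CPM in shFOXA2 and at 303, 287 and 304 CPM in shNC, so all 3 shFOXA2 libraries lay below. TEAD1 fell by 0.19 on the log2 scale (SE 0.04, n = 3 per group, edgeR adjusted p 3.22e-04), the smallest change among those that passed the test. Without shFOXA2 replicate 1, the 6 genes that rose still passed the test, as did TEAD1.

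**Figure D3:**
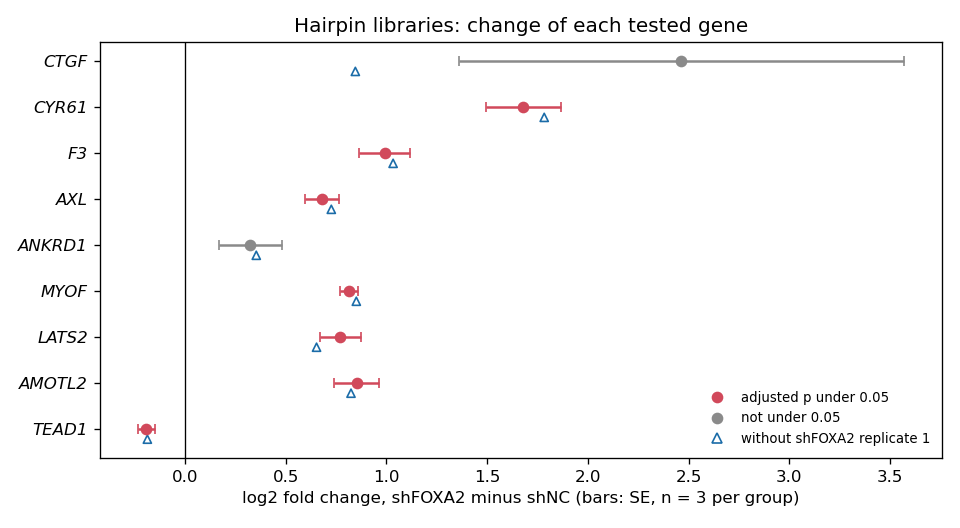
Log2 fold change of each tested gene, shFOXA2 minus shNC, with its SE (3 libraries per group); triangles give the value without shFOXA2 replicate 1. CTGF moves from 2.46 to 0.85 when that library is left out, while CYR61 stays near 1.68 and TEAD1 near -0.19.

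Levels of different genes were compared only per length, as the RPKM values the authors deposited. In shNC, MYOF was highest at 55.5 to 62.4 RPKM, followed by TEAD1 at 26.7 to 28.4 RPKM and AMOTL2 at 11.3 to 15.5 RPKM. AXL, at 4.08 to 5.49 RPKM, overlapped with ANKRD1 at 2.86 to 4.61 RPKM. The ranges of CTGF (1.73 to 3.92 RPKM), F3 (2.50 to 2.61 RPKM) and LATS2 (2.48 to 2.73 RPKM) overlapped one another. CTGF also overlapped with ANKRD1 above it, and in shNC replicate 1 it was the higher of the pair. CYR61, at 0.997 to 1.83 RPKM, overlapped with the lower end of CTGF but not with F3 or LATS2, and AMOTL1 was lowest at 0.0231 to 0.0533 RPKM. With the FOXA2 hairpin AMOTL2, at 23.0 to 25.0 RPKM, overlapped with TEAD1, at 23.1 to 24.8 RPKM.

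The untreated lines differed by far more for some of these genes than the hairpin groups did. Each line gave 1 library, so there is no test, and the exact 95% intervals (Clopper-Pearson) cover counting error only. A gene was counted as different at 4-fold or more with 1 CPM added to both levels and at least 20 counts in the higher library. By this rule CTGF, CYR61 and ANKRD1 were higher in SW480 and MYOF was higher in SW620, of 9 genes with enough counts. Over all 21343 genes with enough counts, 2.97% were at least 4-fold higher in SW480 and 2.26% in SW620.

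ANKRD1 was at 201 CPM in SW480, from 13873 counts, and at 0.0941 CPM in SW620, from 9 counts, a 2141-fold ratio (interval 1128 to 4684). Per length it was the highest of the 10 genes in SW480, at 96.9 RPKM. CYR61 was at 26.5 CPM in SW480 and 1.08 CPM in SW620, a 24.6-fold ratio (20.2 to 30.3). CTGF was at 6.10 CPM in SW480 and 0.659 CPM in SW620, a 9.26-fold ratio (7.09 to 12.3). The 2 matricellular genes and ANKRD1 were thus low in untreated SW620 and present in SW480.

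AMOTL2 (96.1 CPM in SW480, 23.4 CPM in SW620) and LATS2 (38.4 and 9.44 CPM) had ratios of 4.11 (3.92 to 4.31) and 4.07 (3.77 to 4.39). With 1 CPM added they fell just under 4-fold, with log2 ratios of SW620 to SW480 of -1.99 and -1.92. AXL was 3.33-fold higher in SW480 (3.12 to 3.57), at 43.1 CPM against 12.9 CPM. F3 was 1.52-fold higher in SW480 (1.35 to 1.71), at 8.73 CPM against 5.75 CPM. So 7 of the 9 genes had the higher level in SW480, F3 by a small ratio. With 1 CPM added, the median log2 ratio of SW620 to SW480 was -1.915 for the 9 genes. Over all 21343 genes with enough counts it was 0.0118.

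MYOF was the exception among the strongly different genes, at 98.6 CPM in SW480 and 400 CPM in SW620, a 4.05-fold ratio in favour of SW620 (3.95 to 4.16). With 1 CPM added its log2 ratio was 2.01, just over the threshold. TEAD1 was at 351 CPM in SW480 and 403 CPM in SW620, a 1.15-fold ratio (1.13 to 1.17). AMOTL1 had 0 counts in both lines, which allows up to 0.0415 CPM before scaling in SW480 and 0.0313 CPM in SW620.

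**Figure D4:**
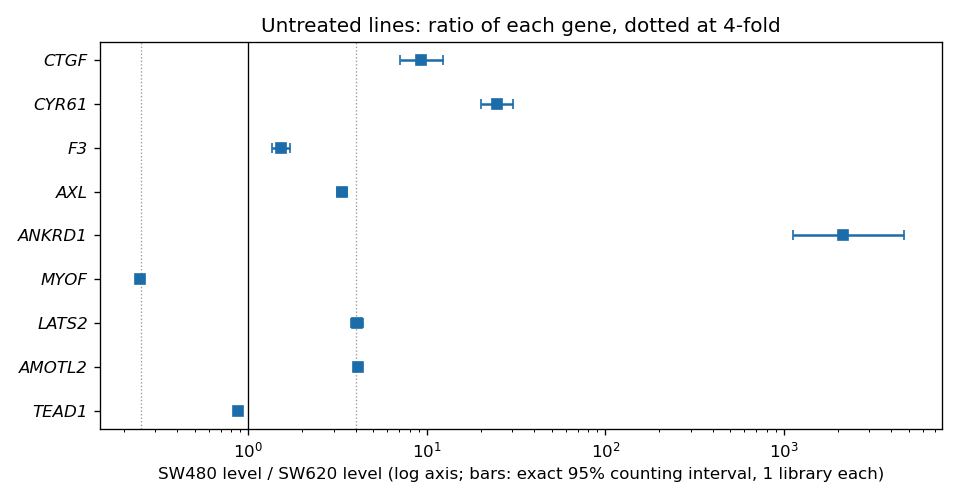
Ratio of the SW480 level to the SW620 level for 9 genes, on a log axis, with nothing added to the levels; bars are exact 95% intervals for counting error, and dotted lines mark 4-fold. ANKRD1 lies at 2141, CYR61 at 24.6 and CTGF at 9.26, while MYOF lies to the left of 1.

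The shNC libraries and the untreated SW620 library are both SW620 cells without a FOXA2 hairpin, but they differ in vector, selection, depth and mitochondrial share, and the part of these was not tested. ANKRD1 was 61.3 to 96.4 times as high in the 3 shNC libraries as in untreated SW620. With 1 CPM added it was the only one of 9 genes to reach 4-fold in all 3 libraries, against 0.489% of 20252 genes. None of the 9 reached 4-fold below, against 0.484%. CTGF was 6.07 to 14.2 times as high in shNC as in untreated SW620, AMOTL2 2.96 to 3.93 times and CYR61 2.32 to 4.14 times. The levels of these genes in shNC were thus not those of the untreated line, and the comparison of shFOXA2 with shNC is within vector-carrying cells.

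Further gene lists of the pathway were read in the same fit. Of 13 tested genes among 14 other YAP and TAZ targets, 7 rose and 0 fell, with a median log2 fold change of 0.50, against 19.2% higher and 19.8% lower over all genes tested. PTPN14, a phosphatase that restrains YAP, rose by 0.68 on the log2 scale (edgeR adjusted p 1.93e-15), from 125.5 to 130.0 CPM in shNC to 186.4 to 213.2 CPM in shFOXA2. DOCK5, an exchange factor for Rac, rose by 0.54 (edgeR adjusted p 1.06e-09), and IGFBP3, a binding protein of insulin-like growth factors, rose by 0.50 (adjusted p 2.55e-05). In untreated SW620 PTPN14 was at 261.5 CPM and IGFBP3 at 63.0 CPM, above both hairpin groups. DOCK5, at 61.5 CPM there, lay between the groups. CCDC80, a matrix protein, rose by 0.88 (adjusted p 0.0268) at 0.897 to 3.33 CPM, with overlapping groups. CCDC80 no longer passed without shFOXA2 replicate 3 (adjusted p 0.352), shNC replicate 1 (0.0670) or shNC replicate 3 (0.134), nor in DESeq2 (0.104). NT5E, the surface enzyme CD73, and TGFB2, a TGF-beta ligand, were named after their values were seen: they rose by 2.53 and 1.58 on the log2 scale, with adjusted p of 2.74e-04 and 8.70e-05, both at under 3 CPM in the hairpin libraries. In the untreated lines CRIM1, a transmembrane protein, was 87.7-fold higher in SW480 (interval 72.8 to 106.7), and ASAP1, a GTPase-activating protein, was 4.61-fold higher (4.42 to 4.80). In the hairpin libraries CRIM1 and ASAP1 had adjusted p of 0.608 and 0.669, and without shFOXA2 replicate 3 the log2 fold change of CRIM1 was -0.18.

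Among YAP, TAZ and their DNA partners, 7 of 9 genes were tested, 3 rose and 1 fell, with a median of 0.31. Over all genes tested 19.2% rose and 19.8% fell, and 1 of 7 falling is near that share. YAP1 rose by 0.31 on the log2 scale (edgeR adjusted p 5.52e-08), from 339.9 to 349.9 CPM in shNC to 409.3 to 438.1 CPM in shFOXA2. WWTR1, which encodes TAZ, was at 122, 34.5 and 31.9 CPM in shFOXA2 replicates 1 to 3 and at 22.5 to 22.8 CPM in shNC. Its log2 fold change was 1.54 with an adjusted p of 0.162, and without shFOXA2 replicate 1 it was 0.58 with an adjusted p of 1.20e-06. VGLL3, a cofactor of the TEAD proteins, rose by 1.60 (adjusted p 2.93e-04) at 0.624 to 2.35 CPM. VGLL4, which competes with YAP for the TEAD proteins, fell by 0.38 on the log2 scale (adjusted p 4.98e-08), from 94.2 to 94.5 CPM to 69.5 to 72.7 CPM. TEAD2 rose by 0.71 (adjusted p 0.0132), but without shFOXA2 replicate 1 its adjusted p was 0.200, without shNC replicate 3 it was 0.0528 and in DESeq2 0.0708. TEAD3 and TEAD4 had log2 fold changes of -0.05 and -0.09, did not pass the test and had slightly positive values without shFOXA2 replicate 1, and VGLL1 and VGLL2 had 0 counts in all 8 libraries. Between the untreated lines TEAD2 was 4.65-fold higher in SW480 (4.27 to 5.08).

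Of 19 tested Hippo kinases and upstream regulators among 20, 12 rose and 1 fell, with a median log2 fold change of 0.22, against 19.2% and 19.8% over all genes tested. MOB1A, the activator of the LATS kinases, rose by 0.60 on the log2 scale (edgeR adjusted p 1.37e-14), and FAT1, a large cadherin, rose by 0.63 (adjusted p 4.37e-14). AJUBA, a LIM protein that restrains LATS, rose by 0.43 (adjusted p 1.08e-09). In untreated SW620 MOB1A was at 230.3 CPM, above both hairpin groups, FAT1 at 136.4 CPM, between them, and AJUBA at 32.4 CPM, below both. WWC1 and WWC2, scaffolds that promote LATS activity, rose by 0.22 and 0.28 (adjusted p 0.00720 and 0.00309). WWC1 had an adjusted p of 0.116 without shFOXA2 replicate 3 and of 0.0600 without shNC replicate 3. LIMD1, named because it was the only one to fall, is a relative of AJUBA and fell by 0.18 (adjusted p 0.0148). It no longer passed without shFOXA2 replicate 2 (0.0745) or shNC replicate 1 (0.0565), nor in DESeq2 (0.0653). None of the 19 was 4-fold apart between the untreated lines, where 2.97% and 2.26% of all genes were, and the largest difference was 2.84-fold for FAT1.

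**Figure D5:**
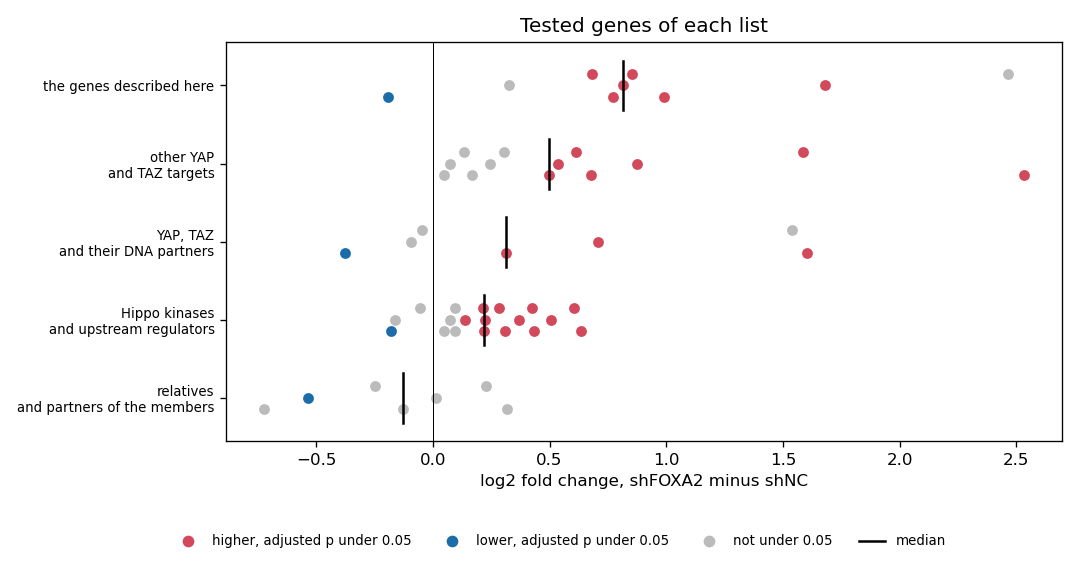
Log2 fold change, shFOXA2 minus shNC, of each tested gene of the genes described here and of 4 further lists; each point is 1 gene, colour gives the call at adjusted p 0.05, and the bar is the list's median. The medians are 0.81, 0.50, 0.31, 0.22 and -0.13 from top to bottom.

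Of 15 relatives and partners of the 10 genes, 7 were tested, 0 rose and 1 fell. Over all genes tested 19.2% rose and 19.8% fell, so for 7 genes these counts say little about the list. GAS6, the ligand of AXL, fell by 0.54 on the log2 scale (edgeR adjusted p 1.88e-12), from 131.5 to 134.8 CPM in shNC to 83.4 to 93.4 CPM in shFOXA2. So the receptor AXL rose while its ligand fell in the same libraries. TYRO3, a receptor of the AXL family, had a log2 fold change of -0.25 with an adjusted p of 0.0512, which became 0.00836 without shFOXA2 replicate 3 and 0.0405 without shNC replicate 2. PROS1, which encodes protein S, another ligand of that family, had one of 0.23 with an adjusted p of 0.160 and was 7.84-fold higher in untreated SW620 (6.66 to 9.28). Without shNC replicate 3 its adjusted p was 0.0492. DYSF, a ferlin related to MYOF, was 14.5-fold higher in SW480 (10.4 to 20.95), the reverse of MYOF. NOV, a relative of CTGF, was 12.4-fold higher in SW480 (8.25 to 19.4).

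The genes most like CTGF and CYR61 across the 8 libraries were read by Pearson's r of log2(CPM + 1) over 18947 genes, without p, since the 8 points share libraries and groups. For CYR61 these were FOSL2 (r = 0.996), NETO2 (0.991), TTC7A (0.989), MALSU1 (0.985) and STX7 (0.982). FOSL2, an AP-1 factor, rose by 0.61 on the log2 scale in the hairpin libraries (edgeR adjusted p 1.77e-12) and was 3.33-fold higher in SW480. Because FOSL2 was picked for following CYR61 over these same libraries, both directions come with the pick and are no separate result. For CTGF 4 of the 5 were ECI2 (0.981), GLB1 (0.974), TLN1 (0.966) and KIF5B (0.965). The fifth, listed under a clone name, had r = 0.968. Each of these 5 had its highest level in shFOXA2 replicate 1, the library in which CTGF was highest. Among the shNC libraries each of them, like CTGF, was highest in replicate 1, TLN1 only narrowly (223.8 CPM against 218.8 and 218.6 CPM). The 5 genes were picked for following CTGF over these same libraries, so the shared peaks come largely with the pick.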

How the data were processed

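RNA was measured in 8 libraries with a directional kit. Per the labels, the libraries are untreated SW480 (1), untreated SW620 (1), shFOXA2 (3) and shNC (3). The authors deposited, for each library, raw counts per gene and RPKM values, and HOMER and hg19 are named in the submitters' processing notes without a role. No source used here gives the counting strand or the annotation. Counts were tested with edgeR 4.0.16 (quasi-likelihood, robust, two-sided, TMM, default expression filter) on the 6 hairpin libraries, with Benjamini-Hochberg adjustment over 16100 genes at 0.05. The SE is the log2 fold change divided by the root of F. CPM levels use TMM factors over all 8 libraries. The deposited RPKM equalled counts scaled by gene length and library total for 100% of values above 20 counts (tolerance 1e-04). The limit for 0 counts is 3 counts, which was 0.0313 to 0.401 CPM before scaling, and intervals and limits cover counting error only.

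Each table had 42713 rows. A repeated symbol, found for 256 symbols and none of the 10 genes, took the row with the most counts. Replicates of a group differed by more than sampling noise (chi-square per degree of freedom 1.62 to 4.252). The genes and lists were chosen with earlier results of these data known. The genes named are the 10 genes, FOXA2, all YAP, TAZ and DNA partner genes, the 3 smallest p and 3 largest ratios between lines of each further list, and the 5 genes most like CTGF and CYR61. NT5E, TGFB2, LIMD1 and the marker genes were named after their values were seen. On simulated data for shFOXA2 against shNC, 15, 38, 45 and 49 of 50 genes changed 1.25-, 1.5-, 2- and 4-fold were called, and 8 of 15702 unchanged genes. The simulation gave all genes the same relative spread between replicates and no library that stood apart. These rates therefore may not hold for the real libraries. Alternatives were other scalings, no expression filter, DESeq2 1.42.0, a replicate block, summed repeated symbols, each library left out, and, for the lines, other thresholds. Gene positions come from GENCODE (GRCh38), and promoter sequences from RefSeq (GRCh38.p14).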

Additional observations from a re-analysis of the deposited data

How the results depend on the processing

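Over 108 alternative values for the 9 tested genes, 106 kept their direction and side of the threshold, 2 passed it newly (CTGF with DESeq2, ANKRD1 without shNC replicate 2) and 0 changed direction. The counts of 6 higher and 1 lower became 7 and 1 in those settings. Genes called were 6280 with all 6 libraries, 5299 to 5872 with 1 library left out and 4901 with DESeq2. With the replicate block 6139 genes were called, and the 6 higher and 1 lower genes were as without it. Same-numbered libraries had deviation correlations of -0.0044, -0.0468 and -0.0051 over the 16100 tested genes. These values showed no pairing by number over all tested genes, but they cannot decide whether some genes pair by number. The block took ASAP1 and KIF5B past the threshold and changed no other call of a gene named with a test. Both genes were highest in replicate 1 of each group, ASAP1 at 58.1 CPM in shFOXA2 and 60.0 CPM in shNC. For the untreated lines, adding 0.1 CPM in place of 1 gave 2570 genes at least 4-fold apart in either direction instead of 1115, of 21343. Of the 9 genes with enough counts, 5 were then at least 4-fold higher in SW480 instead of 3. A 2-fold threshold gave 3629 genes apart in either direction and 6 of the 9 higher in SW480. The share of all genes higher in SW480 alone was not taken at these settings, so the member counts have no direct background. With 1 library left out, the log2 fold change of TEAD3 ran from -0.224 to 0.0522, of TEAD4 from -0.204 to 0.0177 and of CRIM1 from -0.18 to 0.69. Added after the data were seen, the list counts without shFOXA2 replicate 1 gave 2 lower Hippo regulators instead of 1, 3 lower epithelial markers instead of 5 and 3 higher fibroblast markers instead of 2. In that fit 2813 of all 16400 genes tested were higher and 2970 were lower. Depth limits AMOTL1, NT5E and VGLL3, which had few counts per hairpin library, and 1 library per line leaves the line ratios without a replicate check. The causes of these changes were not tested.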

Other observations

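The hairpin target sites were compared with the 10 genes. The labels give 2 sites of 21 bases in FOXA2, shown with the bases that pair with bases 2 to 8 of the antisense strand in capitals.
FOXA2 site 1: gaacggcatgaacACGTACAt
FOXA2 site 2: gcaagggagaagaAATCCATa
Annotated 3' untranslated regions (GENCODE, GRCh38) of 0 of the 10 genes held the first stretch. F3 (chr1:94529760-94529766) and TEAD1 (chr11:12937910-12937916) held the second. Of 12445 tested genes with an annotated 3' untranslated region, 1810 (14.54%) held at least 1 of the 2 stretches. The share for each stretch alone was not taken. F3 rose and TEAD1 fell in shFOXA2. The labels do not say which site the shFOXA2 libraries carry beyond the number 1 in their titles. The stretches compared were redefined after the result of a first search, at another offset of site 1 alone, had been seen.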
